A study of Mus musculus with 6 samples.

Results

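Stromal matrix genes are 9 genes of the interstitial extracellular matrix: Col1a1, Col1a2, Col3a1, Col6a5, Sparc, Mmp2, Dcn, Lum and Sfrp1. They are 9 of the 30905 genes counted in single-cell RNA-seq of adult mouse testis. They were chosen by symbol, and on a measured value: several had lower unique molecular identifier (UMI) sums in mesenchymal-like barcodes of smoke-exposed than of control libraries. That difference is therefore given as a description, with no test. The study used male mice of the outbred ICR stock, and all 6 libraries came from testis. Control mice (3 libraries) spent time in a chamber of the same kind without smoke. Smoking mice (3 libraries) were exposed to cigarette smoke for 12 weeks, 30 minutes a day, from 15 cigarettes at a time. A cigarette carried 11 mg of tar and 1.1 mg of nicotine. Per the labels, smoke particles were at 3.47 mg/m3. The mice were bought at 6 weeks of age and adapted for 1 week, whereas the age label reads 8 weeks. Each group had 7 mice, and the labels do not say which mouse or mice gave a library, so a p-value speaks only of the spread between the libraries as they stand.

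Fibrillar collagens form the load-bearing fibres of connective tissue. Col1a1 and Col1a2 encode the chains of collagen I, and Col3a1 that of collagen III, which is laid down with it. Small leucine-rich proteoglycans, here decorin (Dcn) and lumican (Lum), bind collagen fibrils and set their spacing. Sparc is a collagen-binding matricellular protein, made by many cells that build or contact basement membranes. Mmp2 is a secreted gelatinase that cleaves denatured collagen and collagen IV. Col6a5 is a chain of the microfibrillar collagen VI family, and Sfrp1 is a secreted antagonist of Wnt ligands. In the testis, stroma of this kind lies between the seminiferous tubules, with Leydig cells, vessels and macrophages, while peritubular myoid cells and Sertoli cells share in the tubule's basement membrane.

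The members lie at separate loci except for the proteoglycan pair, in GENCODE M21 on mm10. Dcn spans chr10:97479609-97518143 and Lum chr10:97565128-97572703, both on the plus strand, next to each other. Col1a1 (chr11:94936224-94953042, plus) and Sparc (chr11:55394500-55423183, minus) share a chromosome, as do Mmp2 (chr8:92827291-92853420, plus) and Sfrp1 (chr8:23411502-23449632, plus). Col1a2 lies at chr6:4504814-4541544 (plus), Col3a1 at chr1:45311538-45349706 (plus) and Col6a5 at chr9:105856078-105960643 (minus). All 9 are annotated as protein-coding.

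RefSeq promoter sequences (GRCm38.p6, 250 bases before to 50 after the start) were matched for 4 of the 9 members. Those of Col1a2, Col3a1 and Sparc are shown, since these are fibrillar collagen genes and the member found across the somatic classes. Capitals mark short promoter motifs, searched on both strands. The first was the CCAAT box, by the letters of its name. The GC box, bound by Sp factors, was searched as GGGCGG. The TATA box, read by the basal transcription machinery, was searched as TATAAA. The AP-1 site, bound by Fos and Jun proteins, was searched as TGANTCA. Col1a2 is at chr6:4505368-4505667 (plus), Col3a1 at chr1:45311288-45311587 (plus) and Sparc at chr11:55420031-55420330 (minus).
Col1a2: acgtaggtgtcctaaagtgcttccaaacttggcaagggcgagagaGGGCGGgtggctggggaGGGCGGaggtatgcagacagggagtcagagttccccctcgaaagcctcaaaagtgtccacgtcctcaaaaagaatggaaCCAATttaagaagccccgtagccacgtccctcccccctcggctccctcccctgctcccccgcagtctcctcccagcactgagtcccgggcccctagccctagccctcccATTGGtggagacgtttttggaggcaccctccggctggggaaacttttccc
Col3a1: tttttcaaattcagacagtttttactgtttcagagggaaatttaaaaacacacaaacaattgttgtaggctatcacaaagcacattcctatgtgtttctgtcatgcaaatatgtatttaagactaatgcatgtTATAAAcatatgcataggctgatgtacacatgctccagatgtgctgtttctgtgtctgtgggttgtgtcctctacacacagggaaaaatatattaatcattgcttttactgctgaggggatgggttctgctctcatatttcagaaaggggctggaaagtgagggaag
Sparc: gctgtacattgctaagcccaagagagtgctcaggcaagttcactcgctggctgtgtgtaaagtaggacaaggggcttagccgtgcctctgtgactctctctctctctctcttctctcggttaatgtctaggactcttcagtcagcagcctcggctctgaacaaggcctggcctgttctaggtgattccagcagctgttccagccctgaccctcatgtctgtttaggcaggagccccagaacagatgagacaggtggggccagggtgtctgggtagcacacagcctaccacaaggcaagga
The Col1a2 window held GC boxes at positions 46 to 51 and 63 to 68, and a CCAAT box at positions 142 to 146, counted from 1 at the 5′ end. A further CCAAT box lay on the other strand at positions 251 to 255. Col3a1 held the TATA box letters at positions 134 to 139, beginning 117 bases before the start, and the Sparc window held none of the 4 motifs. The Col1a2 and Sparc windows lie wholly inside the GENCODE spans given above. The RefSeq starts used for them are thus not the outer 5′ ends of the GENCODE genes. Of all 32851 RefSeq promoters of this length, 37.4% held a CCAAT box, 35.7% a GC box, 13.6% a TATA box and 7.81% an AP-1 site, so these matches are descriptions of the letters only.

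The libraries held between 39607204 and 78455606 UMIs in 8598 to 9976 deposited barcodes, and 47934 of 54253 barcodes were retained. Pairs of libraries shared between 16 and 34 barcode sequences. Barcodes were grouped into classes called "-like" from fixed marker genes, none of them a member. Mesenchymal-like barcodes numbered 251, with 53, 36 and 38 in the 3 controls (1 to 3) and 48, 43 and 33 in the 3 smoking libraries. They came from a cluster of 355 deposited barcodes, in which 10 of 15 fixed mesenchymal markers passed the naming rule. In the 251 retained barcodes Ccl11 was at 0. Per library they gave 113766 to 233030 UMIs. Their share of retained barcodes was 0.541% ± 0.128 in controls against 0.512% ± 0.121 with smoke (SD, n = 3 each; exact two-sided permutation test, p = 0.8, where 0.1 is the smallest p this design allows). Without control 1 or without smoking library 3 the sign of that difference turned, to 0.0443 and 0.0361 percentage points.

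Mesenchymal-like barcodes held more than 50% of the UMIs of 5 of 9 members, and of 4 of 9 without control 1. They held 96.7% of all Dcn UMIs (95% exact binomial interval 96.3 to 97.0%), 82.5% of Col1a1 (78.4 to 86.2%) and 80.6% of Col1a2 (78.4 to 82.6%). They held 72.8% of the gelatinase Mmp2 (63.7 to 80.7%) and 57.2% of Col3a1 (54.2 to 60.3%). These intervals cover counting error only. By library the share ran from 94.7 to 99.2% for Dcn, from 33.3 to 90.3% for Mmp2 and from 28.5 to 79.1% for Col3a1, and without control 1 it was 51.9% for Mmp2 and 47.3% for Col3a1. Since members were among the genes that placed the barcodes in clusters (8 of 9, all but Sfrp1), these shares describe the class and are no test.

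**Figure D1:**
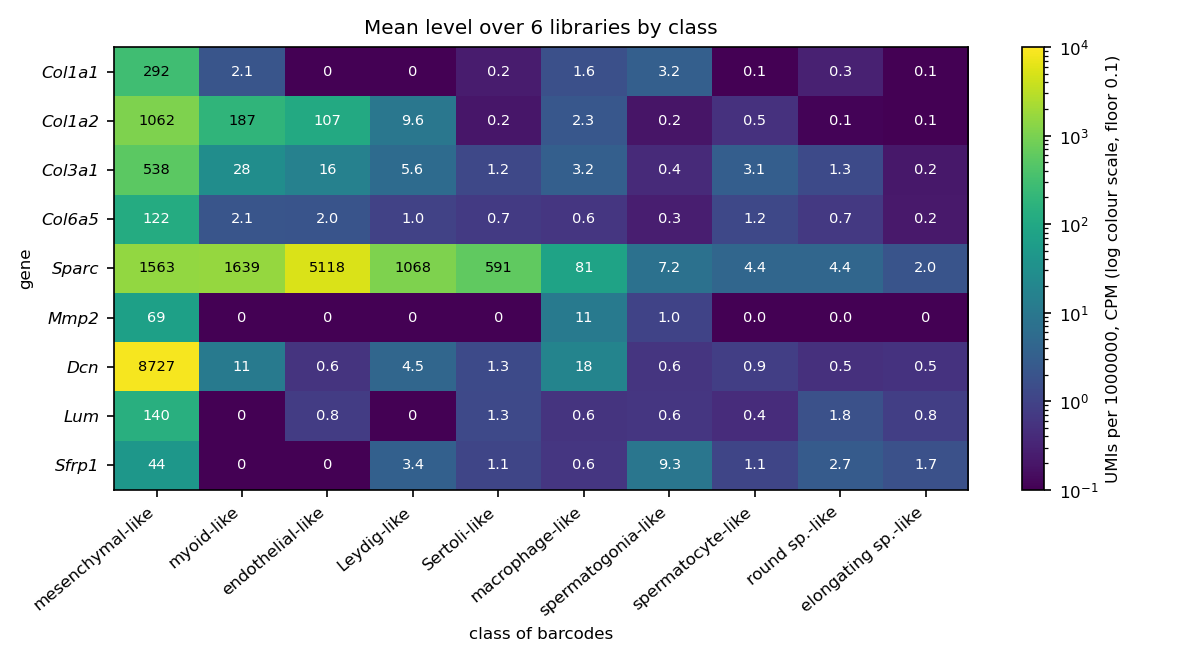
Mean level in UMIs per 1000000 (CPM) over the 6 libraries (colour, log scale; numbers in the cells) for the 9 genes (rows) in 10 classes of barcodes (columns; myoid stands for peritubular myoid or smooth muscle, sp. for spermatid). Dcn stands at 8727 in mesenchymal-like barcodes and at 18.3 or below in the other classes, while Sparc is above 500 in 5 of the 6 somatic classes.

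Col6a5, Lum and Sfrp1 were divided differently. Mesenchymal-like barcodes held 40.5% of Col6a5 UMIs (0 to 64.4% by library), 27.2% of Lum (0 to 61.5%) and 7.49% of Sfrp1 (0 to 18.1%). Without control 1 these shares were 30.0%, 15.4% and 5.20%. The rest lay mainly in the far more numerous germ-like and unnamed barcodes. For Lum these were 35.0% in unnamed and 20.8% in round-spermatid-like barcodes. For Sfrp1 they were 27.5% in round-spermatid-like, 27.1% in unnamed and 20.2% in elongating-spermatid-like barcodes. As a level, in UMIs per 1000000 UMIs of the sum (CPM), Lum averaged 140 in mesenchymal-like and 1.77 in round-spermatid-like sums, and Sfrp1 44.3 and 2.70. By group, Sfrp1 was at 3.34 ± 0.31 in control and 2.07 ± 0.17 in smoking round-spermatid-like sums (SD, n = 3 each). Lum went the other way there, at 1.42 ± 0.57 and 2.13 ± 0.34. These CPM are unscaled, and the differences were not tested. In round-spermatid-like barcodes thinned to 1500 UMIs each (no barcode was shallower), 0.299% held a Lum UMI and 0.271% a Sfrp1 UMI, levels at which free RNA and expression cannot be told apart here. Spermatogonia-like sums held 14, 4 and 4 Sfrp1 UMIs in controls and 12, 14 and 0 in smoking libraries, so the level there varied from library to library in both groups.

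Peritubular-myoid-like and endothelial-like sums carried Col1a2 with almost none of its partner chain. Col1a2 was at 153, 317 and 211 CPM in control and 122, 144 and 174 in smoking myoid-like sums, which overlapped. Endothelial-like sums held 132, 73.3 and 68.2 in controls and 129, 104 and 134 in smoking libraries, again overlapping. Of the 72 endothelial-like barcodes, 45 came from a cluster that passed for 12 endothelial but also for 11 peritubular myoid markers, with the pericyte gene Rgs5 among its leading genes. That cluster held 85 Col1a2 UMIs (127 CPM), and the other 27 barcodes held 1 (5.24 CPM). The part of cells with myoid markers in this was not tested. Rgs5 was also among the leading genes of the myoid-like class. Where its cluster was split at any second type, Rgs5 led groups of 52, 8 and 29 retained barcodes, and Acta2 led a group of 21. The part of pericytes in the myoid-like values was not tested. Col1a1 was seen once among all myoid-like barcodes and in 0 of 72 endothelial-like barcodes, which allows a share of up to 4.17% with a UMI. Leydig-like sums, from 274199 to 1041105 UMIs each, held 34 Col1a2 UMIs, no Col1a1, no Mmp2 and no Lum (0 of 405 barcodes, which allows up to 0.741%). These classes had as few as 8 (myoid-like) and 3 (endothelial-like) barcodes in a library, so no test between groups was run in them.

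Sparc, the collagen-binding matricellular gene, was found in every somatic class. Sertoli-like barcodes held 42.1% of its UMIs, endothelial-like 21.3%, Leydig-like 18.0% and mesenchymal-like 8.02%. Its level was highest in endothelial-like sums, at 6504, 5543 and 5362 CPM in controls and 5998, 4020 and 3281 in smoking libraries. Every one of these lay above every mesenchymal-like sum (1014 to 2390.3). Sparc was at 5301 CPM in the endothelial-like cluster that also passed for myoid markers and at 4363 in the other barcodes of the class. Mesenchymal-like and peritubular-myoid-like sums (954 to 2229.8) overlapped, as did these and Leydig-like sums (565 to 1377). Sertoli-like sums came next, from 450.5 to 756, overlapping the Leydig-like ones, and macrophage-like sums were lowest among them at 40.9 to 156. One smoking round-spermatid-like barcode alone held 64 Sparc UMIs, which sets the highest value of that class.

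**Figure D2:**
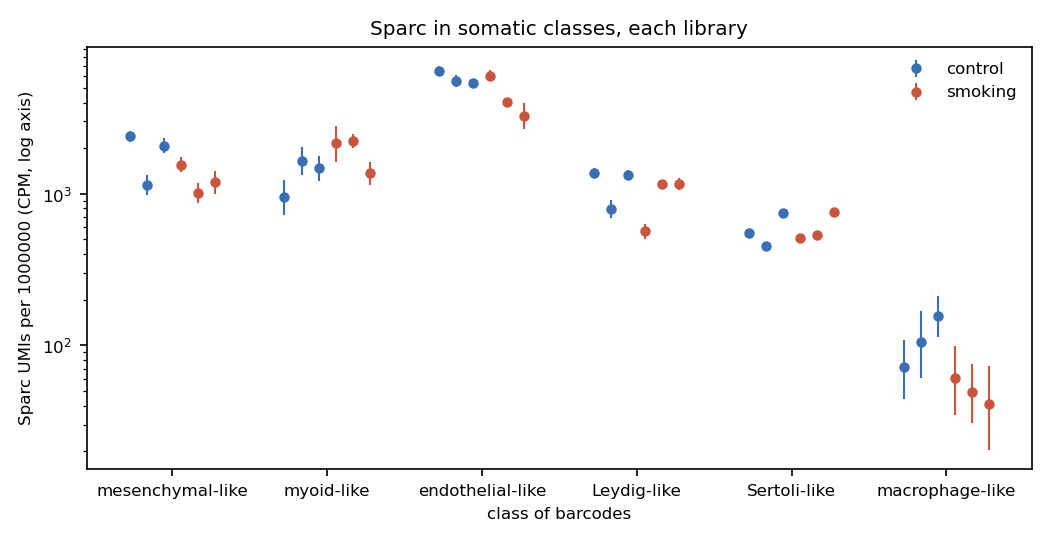
Sparc CPM (log axis) in 6 somatic classes for each control (blue) and smoking (red) library, with 95% exact Poisson intervals for counting error (bars). Endothelial-like points lie between 3281 and 6504, above the mesenchymal-like points, and the 3 smoking macrophage-like points lie below the 3 controls.

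In mesenchymal-like sums, where the members were chosen, the fibrillar collagen genes were highest in control 1. Col1a1 was at 635, 142 and 289 CPM in the 3 controls, in order, and at 297, 139.5 and 246 in the 3 smoking libraries. Control 1 stood apart, and the other 2 controls fell among the smoking libraries. Group means were 355 ± 253 and 228 ± 80.5 (SD, n = 3), and the log2 ratio of smoking to control, after scaling by trimmed mean of M values (TMM), was -0.66. Without control 1 it was 0.09, so its sign turned.

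Col1a2, the second chain of collagen I, was at 1541, 730 and 1036 CPM in controls and at 1030.1, 987 and 1046 in smoking libraries. The smoking libraries lay close together, inside the range of the controls, and the log2 ratio was -0.11 (0.23 without control 1). Col3a1 was at 1090.0, 375 and 518 in controls and 616, 241 and 387 in smoking libraries. Here too the groups overlapped, and a log2 ratio of -0.68 came to -0.10 without control 1.

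Dcn and Col1a2 had the log2 ratios nearest 0. Dcn was at 10578, 7913 and 8654 CPM in controls and 7874, 10191 and 7155 in smoking libraries, with means of 9048 ± 1376 and 8407 ± 1587 (SD, n = 3). The groups overlapped throughout, and the log2 ratio was -0.10 (0.05 without control 1, -0.29 without smoking library 2). Lum, its neighbour on chromosome 10, was at 425, 42.5 and 87.5 in controls and 149, 134 and 0 in smoking libraries. Smoking libraries 1 and 2 lay above controls 2 and 3, and its log2 ratio went from -0.98 to 0.56 without control 1. The 0 in smoking library 3 allows a level of up to 26.4 CPM (3 counts).

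Sparc was at 2390.3, 1148 and 2073 CPM in controls and 1556, 1014 and 1195 in smoking libraries. Control 2 fell among the smoking libraries, and the log2 ratio was -0.58 (-0.35 without control 1). Mmp2 was at 240.3, 42.5 and 40.4 in controls and 58.4, 5.37 and 26.4 in smoking libraries, from 56, 6 and 6 against 11, 1 and 3 UMIs. Controls 2 and 3 lay below smoking library 1, and the log2 ratio moved from -1.87 to -0.45 without control 1.

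Col6a5 and Sfrp1, also counted in few UMIs, had ratios near that of Mmp2. Col6a5 was at 288, 70.8 and 229 CPM in controls and 138, 5.37 and 0 in smoking libraries, from 67, 10 and 34 against 26, 1 and 0 UMIs. Smoking library 1 lay above control 2. Its log2 ratio was -2.05, at -1.65 without control 1 and at -6.16 without smoking library 1. Sfrp1 was at 90.1, 49.6 and 67.3 in controls and 37.2, 21.5 and 0 in smoking libraries, from 21, 7 and 10 against 7, 4 and 0 UMIs. It was the only one of the 9 with every smoking library below every control, and its log2 ratio was -1.82 (-1.56 without control 1). All 7 Sfrp1 UMIs of control 2, the lowest control, came from 1 barcode, and the 7 of smoking library 1 from 5 barcodes. Of all 10128 genes with at least 10 UMIs in mesenchymal-like sums, 4.56% had every smoking library below every control.

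**Figure D3:**
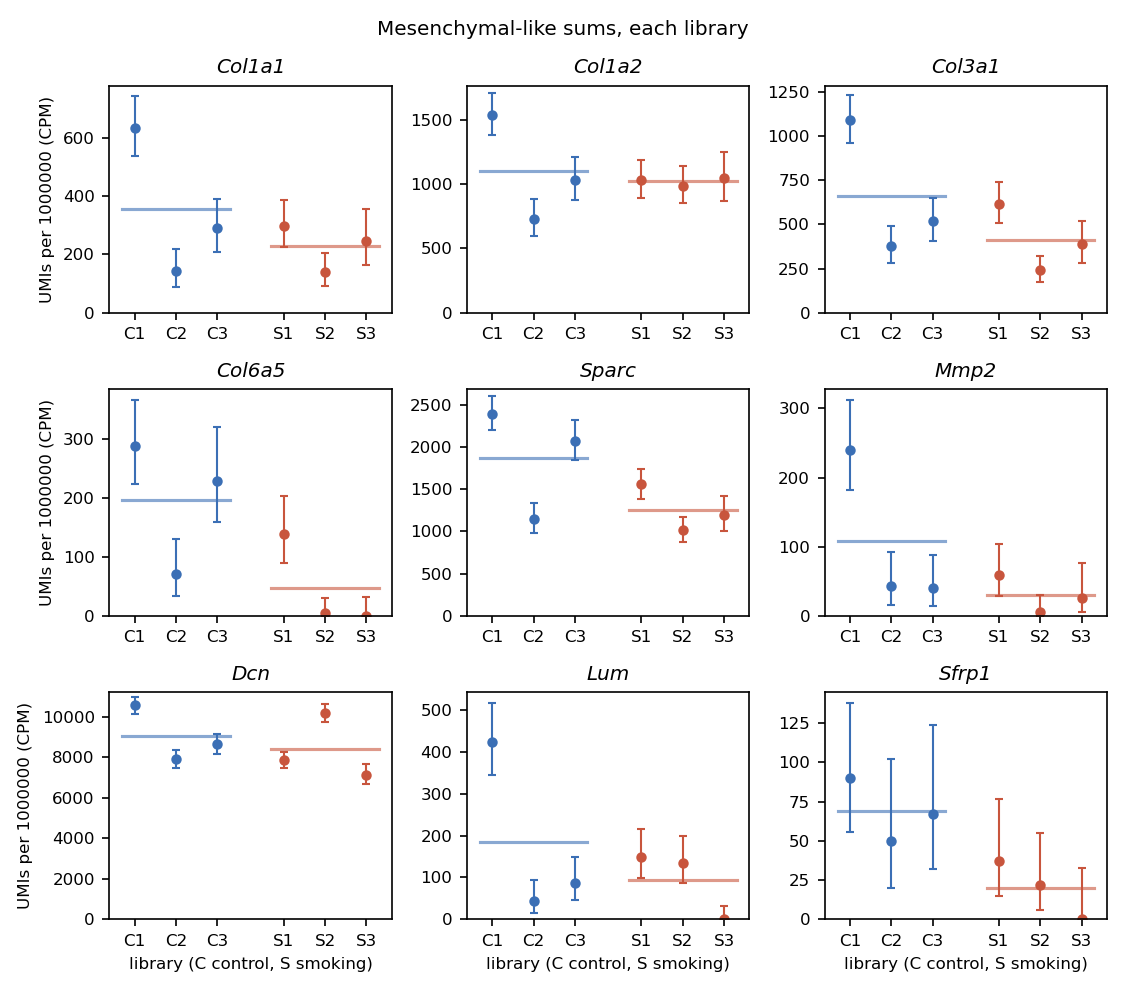
CPM of each gene in mesenchymal-like sums (vertical axes start at 0), for controls C1 to C3 (blue) and smoking libraries S1 to S3 (red), with 95% exact Poisson intervals (bars) and group means (lines). Control 1 is the highest library in all 9 panels, and in Sfrp1 alone do all smoking points lie below all control points.

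Control 1 was thus the highest library for 9 of 9 members, by 1.34 times (Dcn) to 5.95 times (Mmp2) the median of the other 5. All 9 log2 ratios were below 0 with every library, and 5 of 9 remained below 0 without control 1. Between 9 genes read in the same barcodes such counts are not independent. In these sums 10 of 11 macrophage markers had a higher mean in smoking libraries, with Cd74 at 0. Their summed level was 12.9 to 28.3 CPM in controls and 16.1 to 220 in smoking libraries, so the lowest smoking library lay inside the control range. Of the 15 mesenchymal markers that named the class, 9 had a higher mean in smoking libraries, and their sum was 8175 to 11157 CPM in controls and 9638 to 11559 in smoking libraries. Summed markers of Leydig, Sertoli, endothelial, peritubular myoid and elongating spermatid cells overlapped between the groups. Those of elongating spermatids were the largest sum, at 46865 to 61161 CPM in controls and 42790 to 59225 in smoking libraries. Leydig markers summed to 811 to 1140 and 719 to 1757, and Sertoli markers to 863 to 1339 and 912 to 1274. The part of any of these in the differences was not tested.

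**Figure D4:**
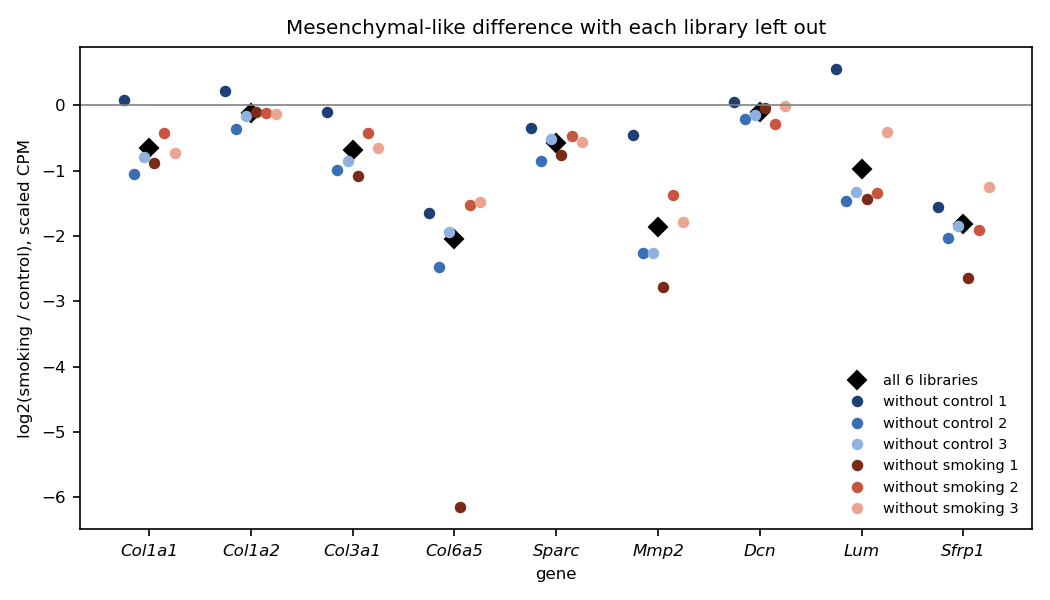
Log2 ratio of smoking to control for each gene in mesenchymal-like sums (vertical axis, group means of TMM-scaled CPM), with all 6 libraries (black diamonds) and with each library left out in turn (circles). Leaving out control 1 brings Col1a1, Col1a2, Dcn and Lum above 0, and leaving out smoking library 1 takes Col6a5 to -6.16.

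The members with few UMIs came from few barcodes. The 5 mesenchymal-like barcodes richest in a gene held 61.2% of its UMIs for Sfrp1, 56.1% for Lum, 54.3% for Col6a5 and 42.2% for Mmp2, against 9.16% for Dcn. Col6a5 was seen in 17 of the 251 barcodes: 10, 1 and 3 in controls and 2, 1 and 0 in smoking libraries. In smoking library 1 a single barcode gave 26 of 28 Lum UMIs, and in smoking library 2 a single barcode gave 21 of 25. In control 1 a single barcode gave 12 of 21 Sfrp1 UMIs, and all 10 Col6a5 UMIs of control 2 came from 1 barcode. The counting intervals above do not cover this unevenness between cells.

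A small set of barcodes carried nearly all members at once. In all, 13 of the 251 barcodes held UMIs of 8 or 9 members, with a median of 5414 UMIs each against 3910.5 in the rest. Of these, 10 were in control 1, 1 in control 2, 2 in control 3 and 0 in the smoking libraries (0 of 124 barcodes, which allows up to 2.42% by counting alone). That limit pools the smoking libraries and does not cover the spread between libraries. They held 73.5% of the Sfrp1 UMIs of the class, 64.5% of Col6a5, 56.6% of Mmp2, 55.6% of Lum, 41.8% of Col3a1 and 38.9% of Col1a1, but 13.7% of Dcn. Barcodes with 8 or 9 members must hold most of the rarely seen ones (Sfrp1 in 19 of 251 barcodes, against Dcn in 225). High shares of the rare members thus follow in part from the selection. The 13 barcodes were singled out after their values were seen, and their number is no test between groups. At the other end, 12 barcodes held none of the 9.

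**Figure D5:**
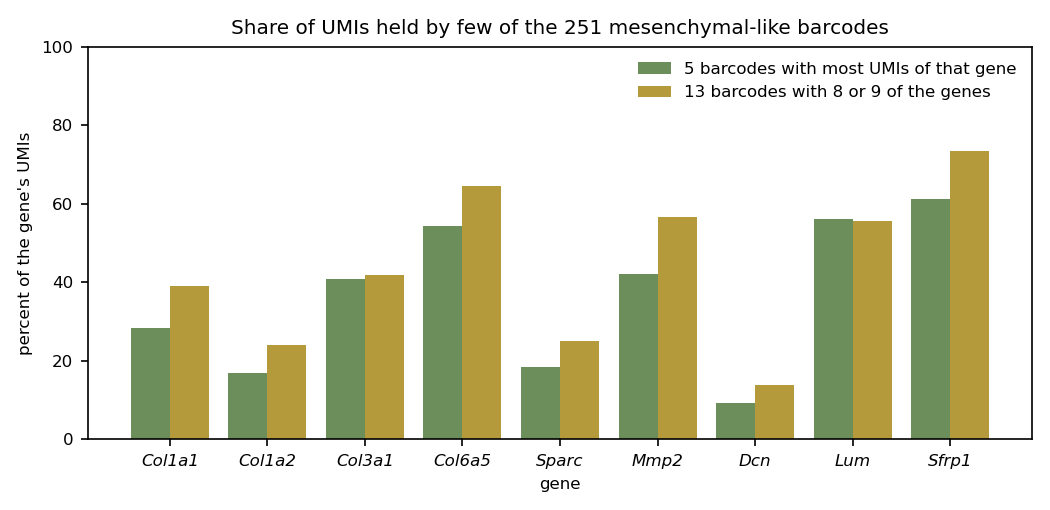
Percent of each gene's UMIs in the 251 mesenchymal-like barcodes (vertical axis, from 0) that came from the 5 barcodes richest in that gene (green) and from the 13 barcodes with UMIs of 8 or 9 of the genes (ochre). Sfrp1, Lum and Col6a5 stand above 50% in both, and Dcn at 9.16% and 13.7%. High ochre bars of rarely seen genes follow in part from how the 13 barcodes were picked.

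Shares of barcodes with a UMI differed little for Dcn. After thinning each barcode to 1500 UMIs, Dcn was seen in 85.8% of control and 87.1% of smoking mesenchymal-like barcodes (90.6% and 88.7% unthinned). Col3a1 was seen in 26.8% and 28.2%, and Sfrp1 in 4.72% and 5.65%, in both cases against the direction of their CPM, so no order is read from these shares. Unthinned, they were 54.3% and 45.2% for Col3a1 and 7.87% and 7.26% for Sfrp1. Again after thinning, Col6a5 was seen in 10.2% and 2.42%, Lum in 11.8% and 3.23%, and Mmp2 in 7.87% and 2.42%. Without control 1 the thinned control shares of Col6a5, Lum and Mmp2 were 5.41%, 6.76% and 2.70%, from 4, 5 and 2 barcodes. Median depths were 4270.0 UMIs in control and 3898.5 in smoking barcodes before thinning. In round-spermatid-like barcodes (median 3461 UMIs) the thinned shares were 0.157% for Dcn, 0.299% for Col3a1, 0.143% for Col6a5 and 0 for Mmp2, where 0 allows up to 0.0428%.

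Within the class, clustering gave 4 groups of 99, 79, 19 and 54 barcodes. The fourth passed for only 2 mesenchymal markers, short of the naming rule, and was unnamed where clusters were split at any second type. Dcn was at 726 CPM in the fourth group and at 13329 in the first. The first held 96.5% of the Lum UMIs, 87.7% of Col6a5, 86.7% of Mmp2 and 85.7% of Sfrp1, and 66.4% of Dcn. It had 28, 9 and 16 barcodes in controls and 17, 19 and 10 in smoking libraries, which were 41.7% of control and 37.1% of smoking mesenchymal-like barcodes. Inside it, pooled over libraries, Col6a5 was at 446 CPM in control and 49.3 in smoking barcodes, Mmp2 at 253 and 44.4, and Dcn at 14106 and 12376. Without control 1, whose barcodes were 28 of the 53 controls there, the control levels were 404 for Col6a5, 64.3 for Mmp2 and 14256 for Dcn. The second held 39.8% of Col1a2 and 29.4% of Dcn, and there Col1a1 was at 231 and 216 CPM and Col1a2 at 1061 and 1237. Col6a5 went the other way there, with 0 UMIs in control and 17 in smoking barcodes (79.7 CPM). So did Sfrp1, with 0 and 5 UMIs (23.4 CPM in smoking barcodes), and Dcn, at 6261 and 7556 CPM. Lower in smoking barcodes were Col3a1 (457 and 417), Sparc (1903 and 1439), Mmp2 (23.7 and 18.7) and Lum (17.8 and 9.37). The members themselves helped to place these barcodes, and pooled values have no replicate check.

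Outside the mesenchymal-like class the rule used no contrast, and tests were run there with edgeR's quasi-likelihood test, adjusted by Benjamini-Hochberg over all genes tested. Only Sparc passed the filter on low counts in Leydig-like, Sertoli-like and macrophage-like sums. In Leydig-like sums it was at 1377, 799 and 1339 CPM in controls and 565, 1169 and 1161 in smoking libraries, which overlapped (log2 fold change -0.20 ± 0.31 (SE), adjusted p = 0.986). None of 6396 genes was called there (0%; 112 had an unadjusted p under 0.05, and DESeq2 called 1, Ly6d). In Sertoli-like sums Sparc was at 550.1, 450.5 and 742 in controls and 512, 536 and 756 in smoking libraries (0.03 ± 0.15 (SE), adjusted p = 0.977), where 1 of 10801 genes was called (0.00926%; Scgn, a calcium-binding protein gene outside the rule for named genes, named after its values were seen). There 575 genes had an unadjusted p under 0.05.

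Macrophage-like sums showed the lowest Sparc ratio of these classes, short of the threshold. Sparc was at 71.5, 105 and 156 CPM in controls and 60.8, 49.4 and 40.9 in smoking libraries, from 21, 17 and 43 against 16, 21 and 11 UMIs. All smoking libraries lay below all controls, and the log2 fold change was -1.09 ± 0.31 (SE), with an unadjusted edgeR p of 0.00188 and an adjusted p of 0.554. None of 4725 genes was called (0%; 185 had an unadjusted p under 0.05, and DESeq2 called 0). Mmp2, too low to be tested there, gave 3, 5 and 5 UMIs in controls and 0, 0 and 2 in smoking libraries, also without overlap. Of 11005 genes with at least 10 UMIs in these sums, 5.53% had every smoking library below every control. Dcn UMIs in macrophage-like sums came to 14 in control 2, all from 1 barcode, and to 5 or fewer in each other library.

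Dcn went the other way in Leydig-like sums, at a level near the limit of counting. It gave 0, 0 and 1 UMI in controls and 7, 6 and 3 in smoking libraries, which in smoking libraries was 5.76 to 12.9 CPM. Every smoking library lay above every control, as for 3.49% of 12263 genes with at least 10 UMIs in that class. It did not pass the filter on low counts and was not tested. In the same sums all 12 round spermatid markers, 10 of 11 elongating spermatid markers and 10 of 11 macrophage markers had a higher mean in smoking libraries, with none of these at 0. Their summed levels were 649 to 849.7 CPM in controls against 583 to 2325 with smoke for round spermatid, 24156 to 35799 against 23365 to 64122 for elongating spermatid and 10.9 to 128 against 13.2 to 369 for macrophage markers. Of 15 mesenchymal markers 7 had a higher mean with smoke, at 231 to 255 against 131 to 366 CPM in sum, with Dpt and Ccl11 at 0. Their part in the Dcn counts was not tested.

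Summed over all retained barcodes, all 9 members passed the filter and 0 of 9 were called, as was none of 18864 genes (0%). Of these genes 2262 had an unadjusted p under 0.05, Col6a5 and Mmp2 among them, and DESeq2 called 363 genes but gave no adjusted p for the members. In such sums fewer cells of a type and less RNA per cell cannot be told apart, and they contain the mesenchymal-like barcodes on which the members were chosen. With those barcodes left out, 8 members could be tested and none was called, with adjusted p-values by edgeR from 0.513 (Lum, log2 fold change 0.39) to 0.985 (Col3a1, 0.02). Col1a1 was then at 0.309, 0.172 and 0.244 CPM in controls and 0.125, 0.291 and 0.251 in smoking libraries, and its log2 fold change was 0.10 ± 0.41 (SE). Col6a5 and Sfrp1 still had every smoking library below every control, at 1.04, 0.919 and 0.713 against 0.522, 0.528 and 0.665 for Col6a5. So did 21.6% of 22175 genes on this unscaled CPM. Over the 18788 genes tested, the median log2 fold change was -0.22 before TMM scaling and -0.023 after it.

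Other matrix and signalling genes were read from 8 lists of 169 genes in all. In mesenchymal-like sums 52 of them passed the filter. None was called, higher or lower (0 of 3371 genes, 0%, by edgeR; 131 genes and 10 list genes had an unadjusted p under 0.05, and DESeq2 called 0). Of the 52, 26 had a log2 fold change below 0. List medians, beside 0.01 over all genes tested, were -0.27 for 5 other collagens, -0.01 for 7 genes of collagen synthesis and cross-linking and 0.15 for 4 small leucine-rich proteoglycans. They were 0.01 for 14 matrix glycoproteins, -0.01 for 9 proteases and inhibitors, 0.16 for 7 TGF-beta genes, 0.48 for 3 Wnt genes and 0.15 for 3 collagen receptors and integrins.

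The genes of smallest p in each list did not all lie on one side. Serpinh1, the collagen chaperone, was at 305, 234 and 303 CPM in controls and 202, 145 and 141 in smoking libraries, a log2 fold change of -0.76 ± 0.23 (SE). Its smoking libraries all lay below its controls, as for 4.56% of the 10128 genes. Adamts1, a secreted protease, was at 288, 35.4 and 121 in controls and 63.7, 59 and 35.2 in smoking libraries, with control 1 highest as for the members. Mfap4, a microfibril-associated glycoprotein, was at 206, 42.5 and 94.2 against 74.3, 32.2 and 70.3. Col4a2, a basement membrane collagen chain, was instead at 129, 106 and 87.5 in controls and 181, 139.5 and 211 in smoking libraries (0.67 ± 0.27 (SE)), and here and for Ecm2 every smoking library lay above every control, as for 5.33% of the 10128 genes. Wnt6, a Wnt ligand, was at 189, 347 and 323 against 345, 392 and 422, and Ecm2 at 112, 142 and 161 against 175, 231 and 167. Tgfbr2, a TGF-beta receptor, was at 25.7, 21.3 and 60.6 against 69.0, 85.9 and 43.9. The integrin chain Itgb1 was at 266, 255 and 256 against 276, 317 and 255. Each of these had an adjusted p of 0.996 by edgeR.

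In the other classes no list gene was called either, by edgeR or by DESeq2. Of the 169, 140 were tested in all retained barcodes, 32 in Leydig-like, 40 in Sertoli-like and 19 in macrophage-like sums, of which 7, 3, 1 and 0 had an unadjusted edgeR p under 0.05.

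Genes whose levels ran most like each member's were found by Pearson correlation of log2(CPM + 1) over 60 class-by-library sums (10 classes), among the 9903 genes that averaged 10 CPM or more in mesenchymal-like sums. The sums of a class share markers and those of a library share depth, so these values are descriptions. Nearest to Col1a1 were Chrdl1 (0.94), Mfap4 (0.94) and Pdpn (0.93), to Col1a2 Rarres2 (0.97), Bgn (0.96) and Sparcl1 (0.95), and to Col3a1 Tcf21 (0.90), Ecm2 (0.89) and Fhl2 (0.89). For the proteoglycans they were Srpx2 (0.95), Podn (0.94) and Wisp1 (0.93) with Dcn, and Dpt (0.91), Cilp (0.88) and Medag (0.87) with Lum. Col6a5 ran with Dpt (0.90), Rspo3 (0.87) and Cilp (0.82), and Mmp2 with Col6a6 (0.84), Col1a1 (0.84) and Adcy7 (0.83). Sfrp1 ran with Efna5 (0.84), Dpt (0.75) and Lum (0.75). Sparc stood apart from the other members, with Igfbp7, Gnas and Rab12 (each 0.95). Tcf21 and Dpt are themselves mesenchymal markers used to name the class.

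Between the 251 mesenchymal-like barcodes, the members' scaled log counts were most correlated for Col1a2 with Dcn (Pearson r 0.59), Mmp2 with Lum (0.57), Col1a1 with Col3a1 (0.57) and Col1a2 with Sparc (0.57). The lowest of the 36 pairs was Dcn with Sfrp1 (0.12). These barcodes share library and depth, and after thinning Mmp2 and Lum were seen together in 6 barcodes, Col1a2 and Dcn in 145.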

How the data were processed

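Single-cell libraries of 6 mouse testis samples (3 control, 3 smoking) were read with the 10x Genomics 3′ v2 protocol, per the labels' protocols. The authors deposited unnormalized counts of UMIs for each gene in each called barcode. Cell Ranger appears as 3.1.0 in the file headers, but as 7.1.0, beside CASAVA 1.8 and mm10, in the submitters' processing notes. Which version made the counts, and the use of strand in counting, are not given in the sources used here.

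From the counts, barcodes with over 20% mitochondrial UMIs and the highest doublet scores against simulated pairs (0.8% per 1000 barcodes) were removed. Those under 500 UMIs or 300 genes would have been, and there were none. This removal applied to sums and shares only. Clustering by Leiden (leidenalg 0.10.2, resolution 1) used all deposited barcodes, on 30 components of 2000 variable genes and 20 neighbours. Clusters were likewise named with the removed barcodes still in them. A cluster was named from 3 or more fixed markers at a log2 fold of 1 or more over the other barcodes, seen in at least 20% of its barcodes, and 53.8% of retained barcodes stayed unnamed. A cluster was split at resolution 0.5 where the second type had 3 or more markers and 0.5 times or more those of the first, a rule set after the data were seen. Counts were summed by class and library and tested, where every library had at least 10 barcodes, with edgeR 4.0.16 (filterByExpr, TMM, quasi-likelihood test, Benjamini-Hochberg threshold 0.05) or, as an alternative, DESeq2 1.42.0. The edgeR fit was also run on counts simulated with the same dispersion for every gene, which does not measure its power or error rate for the members. Replicate numbers follow accession order and pair nothing. Class sums differ in depth between libraries, and each value's counting error is given by 95% exact intervals.

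The members and lists were chosen with earlier results of these data known. Genes named were all 9 members, from each list up to 4 called genes with a mean of at least 10 UMIs per 1000000 (CPM), or else the gene of smallest p in mesenchymal-like sums, and the 3 genes most like each member. Alternatives were DESeq2, no filter on low counts, each library left out, all deposited barcodes kept, members left out of the variable genes, resolution 2, free RNA subtracted at its rate in round-spermatid-like barcodes, averaging over barcodes and, chosen after seeing the data, splitting clusters at any second type, leaving out mesenchymal-like barcodes, and leaving control 1 out of shares and subcluster levels.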

Additional observations from a re-analysis of the deposited data

How the results depend on the processing

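No member that got an adjusted p was called in all retained, Leydig-like, Sertoli-like or macrophage-like barcodes under the alternatives run. DESeq2 gave none for the 9 members over all retained barcodes, and Sfrp1 had no value there with free RNA subtracted. Over all genes, edgeR with no filter on low counts called 1, 9, 58 and 16 in these classes and 15 in mesenchymal-like sums, against 0, 0, 1, 0 and 0 with it. DESeq2 called 363, 1, 5, 0 and 0. With each library left out the calls ran from 0 to 5, 4, 6, 7 and 2. Free RNA subtracted gave 1 in Leydig-like and 0 in Sertoli-like sums, where clusters split at any second type gave 2 and all deposited barcodes kept gave 0. In mesenchymal-like sums, 2 list genes (Tgfb2 and Adamts1) were called by edgeR with no filter on low counts, against 0 with it. As a mean over barcodes of log2(1 + UMIs per 10000), a compressed scale, the difference there was -0.29 for Mmp2, -0.28 for Col6a5, -0.076 for Sfrp1 and, above 0, 0.11 for Col1a2. With each library left out, log2 ratios of smoking to control ran from -1.05 to 0.09 for Col1a1, -0.36 to 0.23 for Col1a2, -1.07 to -0.10 for Col3a1, -6.16 to -1.48 for Col6a5, -0.85 to -0.35 for Sparc, -2.78 to -0.45 for Mmp2, -0.29 to 0.05 for Dcn, -1.47 to 0.56 for Lum and -2.64 to -1.25 for Sfrp1. The share of mesenchymal-like barcodes turned from -0.0289 to 0.00446 percentage points with all deposited barcodes kept, and ran from -0.0841 to 0.0443 with each library left out.

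Over all retained barcodes, log2 fold changes turned to 0.075 for Col1a1, 0.036 for Col1a2 and 0.52 for Lum without control 1, the highest with a library left out, where the lowest, without control 2, were -1.39, -0.82 and -0.38. Without mesenchymal-like barcodes they turned to 0.10 for Col1a1, 0.016 for Col3a1, 0.23 for Dcn and 0.39 for Lum. With free RNA subtracted that of Lum went from -0.11 to -3.45. That of Sparc in Leydig-like sums turned to 0.041 without smoking library 1 and was -0.42 without control 2. In Sertoli-like sums it ran from -0.14 to 0.24 with each library left out (-0.12 without control 2), and turned to -0.12 with all deposited barcodes kept, -0.068 with free RNA subtracted and -0.015 with clusters split at any second type. In macrophage-like sums it ran from -1.37 to -0.68 and kept its direction. The causes were not tested. No paired analysis was possible because replicate numbers were given in accession order and pair nothing. Few mesenchymal-like barcodes per library limit the depth for Col6a5, Mmp2, Lum and Sfrp1.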
